A study of Mus musculus with 26 samples.

Results

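Ribosome biogenesis and RNA polymerase I genes were followed on 26 microarrays of murine Ba/F3/gp130 cells, and 47 of the 19938 genes measured belonged to this set. Members were taken by name: the Nop, Utp and Rrp genes with a number after the prefix, the Polr1 subunit genes with a letter, and 17 further nucleolar genes such as Fbl, Npm1 and Dkc1. Ba/F3/gp130 cells are a pro-B cell line that depends on IL-3 or Hyper-IL-6 and carries gp130, the signalling chain of the IL-6 receptor family. All cells were first washed and kept for 4 h in medium without serum. In the natural line the cells carried IL-10R2 and IL-22Rα1, the receptor chains of IL-22, and either received IL-22 at 100 ng/ml for 2 h (n = 4) or were left untreated (n = 4). The synthetic line carried versions of these chains that display nanobodies, mCherryVHHIL-10R2 and GFPVHHIL-22Rα1. These cells received GFP-mCherry, a fusion with a binding site for each nanobody (n = 6), dimeric mCherry-Fc that can bind only the mCherry nanobody on IL-10R2 (n = 6), each at 100 ng/ml for 2 h, or nothing (n = 6). No group received a control protein, and the labels do not say whether a line is 1 clone or whether arrays of a group came from separate cultures, so p-values measure the spread between these arrays.

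Ribosomes are built in the nucleolus, where RNA polymerase I transcribes one long precursor of the ribosomal RNAs. Small nucleolar ribonucleoproteins (snoRNPs) guide its chemical modification, box C/D particles for ribose methylation and box H/ACA particles for pseudouridine, while the small subunit processome and large subunit assembly factors fold and cut it and add ribosomal proteins. The pathway is costly, and it is known to slow when lymphoid cells are starved of growth factors and to speed up when they are stimulated. The arrays read messenger RNA of these factors, not ribosomal RNA or ribosome output.

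The deposited values were log2 intensities, which spanned 1.79 to 14.31, and arrays of a group correlated at 0.981 to 0.994 across probe sets. Of 10 B lineage markers checked, Cd79a had group means of 9.33 to 9.72 and Cd79b of 8.80 to 9.08. The others were all lower. Igll1 had 6.19 to 6.44, Vpreb3 5.71 to 6.22, Pax5 5.28 to 5.55 and Vpreb1 5.13 to 5.34. Rag1 had 4.86 to 5.03, Ebf1 4.58 to 4.76, Rag2 3.74 to 3.91 and Il7r 3.73 to 3.81. Some markers of other cell types were brighter. Gata2, read as a mast cell marker, had 11.26 to 12.45, above every B lineage marker. The erythroid markers Klf1 and Epor had 7.23 to 8.92 and 7.63 to 8.08, above all B lineage markers except Cd79a and Cd79b. The other mast cell markers, Kit, Cpa3, Fcer1a and Mcpt8, were all below Igll1. What these levels mean for the identity of the cells was not tested. The files hold no detection call, so whether the low values lie above background cannot be told. In the natural line 3 arrays stood apart, IL-22 replicate 5 and untreated replicates 4 and 5. On these 3 arrays the myeloid marker Itgam read 11.73 to 12.05, against 8.73 to 8.98 on the other 5 natural arrays and 4.72 to 6.02 on the 18 synthetic arrays. Mpo, another myeloid marker, read 10.62 to 11.00 on them, against 6.97 to 7.19 on the other natural arrays and 7.14 to 7.43 on the synthetic arrays. The mean over all 6 myeloid markers was 7.97 to 8.32 on the 3 arrays, 6.11 to 6.19 on the other natural arrays and 5.29 to 5.64 on the synthetic arrays. Counts of called ribosome biogenesis genes in comparisons that use these 3 arrays are therefore given with and without them. Other results are given only with them. Among these are the correlation of the IL-22 and GFP-mCherry differences, the overlap of their called genes and the counts of the wider list. The part of the myeloid signal in all these results was not tested.

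All 5 groups can be read from the median over the 47 genes on each array. IL-22 arrays had medians of 9.45, 9.48, 9.41 and 9.23 for replicates 1, 2, 3 and 5, against 9.34, 9.32, 9.06 and 9.15 for untreated natural replicates 2, 3, 4 and 5. The IL-22 array that stood apart was lower than 2 of the untreated arrays, so these groups overlapped. The median over members was 9.32, 9.40 and 9.50 (lowest, median, highest) on GFP-mCherry arrays and 9.29, 9.44 and 9.54 on mCherry-Fc arrays, against 8.81, 8.92 and 9.01 on untreated synthetic arrays. All 12 arrays with either synthetic ligand lay above all 6 untreated ones. The median over all genes on the same arrays was no higher with ligand, at 6.44 to 6.53 under GFP-mCherry and 6.41 to 6.51 under mCherry-Fc, against 6.47 to 6.67 in untreated synthetic cells. In 34 of the 47 genes the untreated synthetic cells had the lowest group mean of the 5 groups. The share of all genes with this order was not computed, so it is not known whether the members differ in it.

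**Figure D1:**
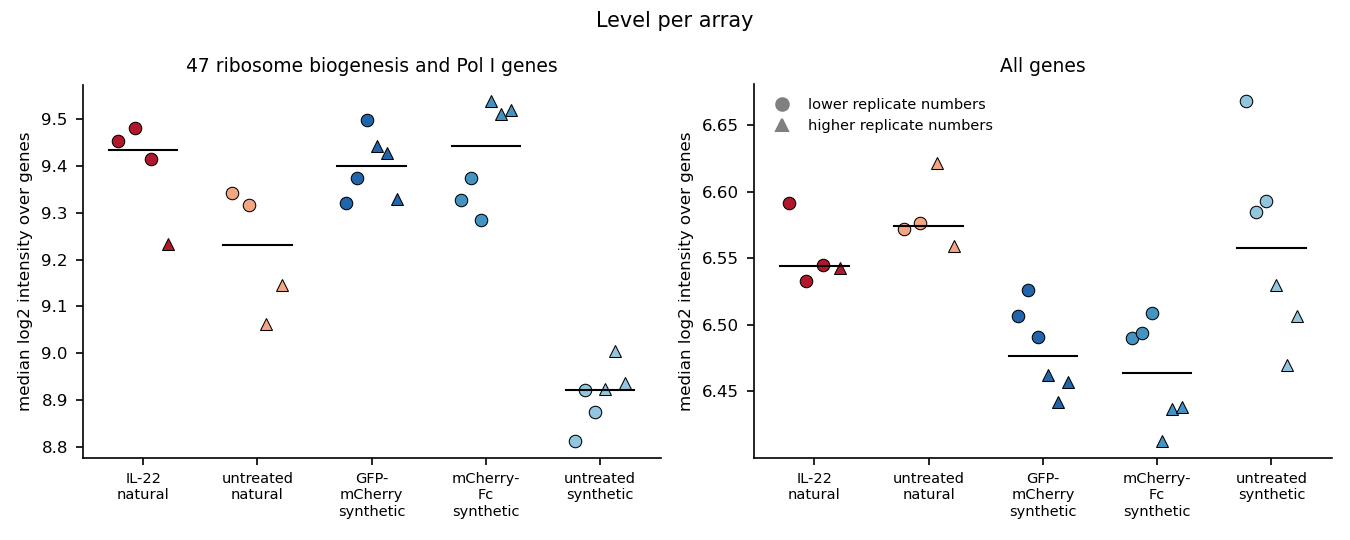
Median log2 intensity on each of the 26 arrays, over the 47 ribosome biogenesis and RNA polymerase I genes (left) and over all 19938 genes (right), with 1 point per array and a line at the group median. Circles are lower replicate numbers (natural 1 to 3, synthetic 7 to 11) and triangles higher ones. The untreated synthetic arrays reach at most 9.01 in the left panel, below the lowest ligand-treated array of either line at 9.23.

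IL-22 in the natural line was the first comparison, of cytokine against none through the unmodified receptor. Of the 47 genes 16 rose and 0 fell, against 11.4% of all genes called in either direction, 5.39% higher and 6.03% lower. The median difference of the 47 was 0.19 on the log2 scale, against -0.02 over all genes. Of the 47 differences 40 were above 0, against 8411 of all 19938. The rises were spread over the pathway, with 7 of 15 large subunit factors, 4 of 16 small subunit factors, 2 of 4 box C/D proteins, 1 of 4 box H/ACA proteins, 1 of 5 RNA polymerase I subunits and 1 of 3 nucleolar chaperones or scaffolds. In all 6 of the 47 genes did not overlap between the groups, Rrp1b, Rrp12, Nop2, Rrs1, Nop9 and Nop56. This is a share of the members near that of all genes, which was 11.4%. In bulk RNA, more cells of one kind and more RNA per cell cannot be told apart.

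Rrp1b, a nucleolar protein of large subunit assembly, read 9.59, 9.63, 9.65 and 9.02 on the IL-22 arrays (replicates 1, 2, 3 and 5), against 8.49, 8.65, 8.44 and 8.5 on the untreated arrays (replicates 2, 3, 4 and 5). Every IL-22 array lay above every untreated one, with replicate 5 the lowest of the 4. The difference was 0.95 ± 0.11 (log2, SE), a 1.94-fold rise, with adjusted p = 8.72e-08 by limma. Rrp12, which works in late maturation and nuclear export of pre-ribosomes, read 9.08, 9.12, 9.14 and 8.49 with IL-22, against 8.32, 8.40, 8.05 and 7.79 untreated. These groups too were separate, and the difference was 0.82 ± 0.12 (adjusted p = 5.81e-06). Nop58, a core protein of box C/D snoRNPs, read 10.97, 11.09, 11.17 and 10.30 with IL-22, against 10.36, 10.22, 9.89 and 9.89 untreated. Here IL-22 replicate 5 lay below untreated replicate 2, so the groups overlapped by 1 array, and the difference was 0.79 ± 0.14 (adjusted p = 0.000188).

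Among the other large subunit factors, Rrs1, which helps bring in the 5S RNA particle, rose by 0.79, Gnl3 (nucleostemin, a nucleolar GTPase) by 0.74 and Nop2, a 28S ribosomal RNA methyltransferase, by 0.63. Smaller rises were those of the RNA methyltransferase Rrp8 (0.37) and of the assembly factors Nop16 (0.28) and Nip7 (0.28). Small subunit genes that rose were Nop9, known from yeast to bind the precursor of the small subunit RNA (0.53), the processome protein Utp4 (0.38) and Bysl, a late maturation factor (0.38). Nop56, the partner of Nop58, rose by 0.42, Dkc1, the pseudouridine synthase of box H/ACA particles, by 0.40, and Nolc1, a snoRNP chaperone, by 0.33. Polr1b, which with Polr1a forms the active centre of RNA polymerase I, rose by 0.60 (adjusted p = 0.00248), while Polr1a differed by 0.17 (adjusted p = 0.219) and Polr1c by -0.04. The lowest value was that of the processome protein Rrp36, at -0.16 (adjusted p = 0.237). The members of the PeBoW complex, which acts in large subunit assembly, differed by -0.03 (Pes1), 0.08 (Bop1) and -0.05 (Wdr12), and none was called.

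The 3 natural arrays that stood apart bear on this comparison. IL-22 replicate 5 had the lowest value of the 4 IL-22 arrays in 39 of the 47 genes, against 34.7% of all genes. Without the 3 arrays 15 genes were called, all higher and all among the 16, against 12.3% of all genes, and Rrp8 had an adjusted p of 0.0709. From those 3 arrays alone, 1 with IL-22 and 2 without, 3 genes were called, Nop9 (0.63), Rrp12 (0.58) and Rrp1b (0.55), against 2.82% of all genes. Leaving out single arrays gave 10 higher genes without IL-22 replicate 2 (4.41% of all genes higher), and 21 higher and 1 lower, Rrp36 at -0.23, without IL-22 replicate 5 (6.70% of all genes higher and 8.91% lower). Bysl, Dkc1, Nip7, Nolc1, Nop16 and Rrp8 each lost their call without 1 of IL-22 replicates 1, 2 and 3 or untreated replicates 4 and 5, with adjusted p-values between 0.0567 and 0.115. A fit to the 2 natural groups alone called 8, all higher, against 3.44% of all genes higher. With the replicate number as a block 13 rose, against 5.04% of all genes, and Bysl (adjusted p = 0.0562), Nip7 (0.0672) and Nolc1 (0.0639) were not called. Of 29 markers of other cell types and the B lineage 4 were lower with IL-22 (Cd79b, Gata2, Klf1 and Epor) and 0 higher, and their part in the result was not tested.

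In the synthetic line, GFP-mCherry, the ligand for both chains, was set against untreated cells. Of the 47 genes 36 rose and 0 fell, against 26% of all genes called in either direction, 14.2% higher and 11.8% lower. The median difference was 0.35, against -0.04 over all genes, and 46 of 47 differences were above 0, against 8082 of all 19938. Rises covered 13 of 15 large subunit factors, 12 of 16 small subunit factors, 3 of 4 box C/D proteins, 3 of 4 box H/ACA proteins, 4 of 5 RNA polymerase I subunits and 1 of 3 chaperones or scaffolds. In all 30 genes did not overlap between the groups, against 14.1% of all genes. mCherry-Fc, which joins IL-10R2 chains only, was set against the same 6 untreated arrays, so its values are not independent of these. With mCherry-Fc 38 genes rose and 0 fell, against 26.9% of all genes called in either direction, 14.0% higher and 13.0% lower. All 47 differences were above 0, against 8502 of all 19938, and their median was 0.35, against -0.04 over all genes. By role the rises were 13 of 15, 13 of 16, 3 of 4, 3 of 4, 4 of 5 and 2 of 3 in the order just given, and 30 genes did not overlap, against 11.3% of all genes.

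Rrp1b read 8.62, 8.73 and 8.89 (lowest, median, highest) with GFP-mCherry and 8.44, 8.64 and 8.79 with mCherry-Fc, against 7.60, 7.79 and 7.91 untreated. Both ligand groups lay wholly above the untreated arrays. The differences were 0.96 ± 0.09 for GFP-mCherry (1.95-fold, adjusted p = 4.91e-09) and 0.84 ± 0.09 for mCherry-Fc (1.79-fold, adjusted p = 1.32e-07). Nop56 read 10.86, 10.89 and 11.01 with GFP-mCherry and 10.85, 10.94 and 11.13 with mCherry-Fc, against 10.01, 10.07 and 10.17 untreated. This was the tightest of the large rises, with an SD of 0.06 in each of the GFP-mCherry and untreated groups. It amounted to 0.83 ± 0.06 for GFP-mCherry (1.78-fold, adjusted p = 5.44e-11) and 0.87 ± 0.06 for mCherry-Fc (1.83-fold, adjusted p = 4.95e-11). Polr1b read 8.82, 8.90 and 9.16 with GFP-mCherry and 8.76, 8.96 and 9.17 with mCherry-Fc, against 8.01, 8.11 and 8.32 untreated. All 12 ligand-treated arrays were again above all 6 untreated ones, and Polr1b rose by 0.80 ± 0.11 with GFP-mCherry (adjusted p = 4.88e-06) and 0.82 ± 0.11 with mCherry-Fc (adjusted p = 6.02e-06).

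**Figure D2:**
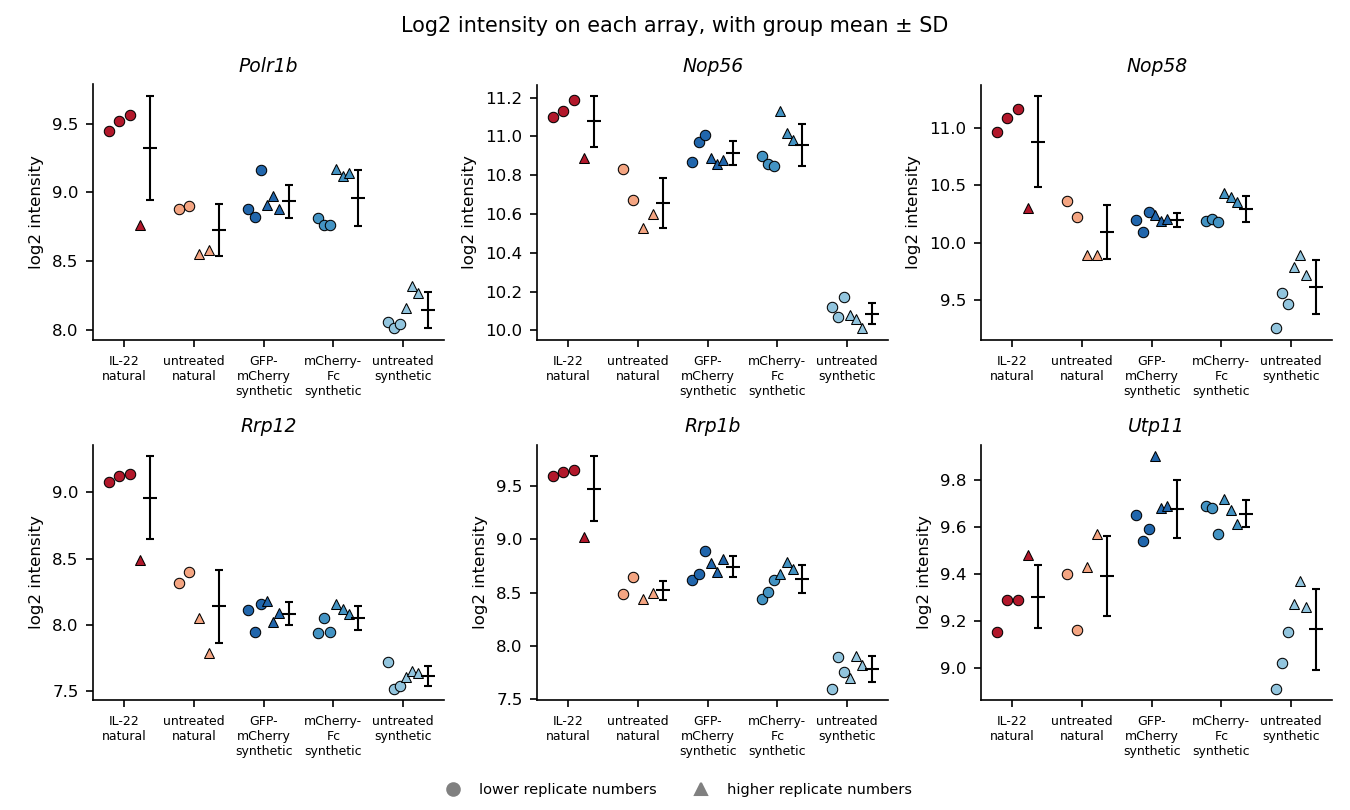
Log2 intensity of Polr1b, Nop56, Nop58, Rrp12, Rrp1b and Utp11 on each array by group, with 1 point per array and the group mean ± SD beside the points (n = 4 in each natural group, n = 6 in each synthetic group). Circles are lower and triangles higher replicate numbers. The single IL-22 triangle is below the IL-22 circles in 5 of the genes and above them in Utp11.

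The promoters of the 4 largest GFP-mCherry rises with an entry in the RefSeq table (GRCm38.p6) are shown, since these genes of different roles moved together; 38 of the 47 genes had an entry. Each is the 250 bases before the annotated start, 5′ to 3′ on the gene's plus strand, at chr17:32035912-32036161 (Rrp1b), chr2:130274162-130274411 (Nop56), chr2:129100746-129100995 (Polr1b) and chr6:125131633-125131882 (Nop2). Capitals mark matches to CACGTG, the E-box read by MYC family proteins, or to TTCNNNGAA, the letters of a STAT site.
Rrp1b: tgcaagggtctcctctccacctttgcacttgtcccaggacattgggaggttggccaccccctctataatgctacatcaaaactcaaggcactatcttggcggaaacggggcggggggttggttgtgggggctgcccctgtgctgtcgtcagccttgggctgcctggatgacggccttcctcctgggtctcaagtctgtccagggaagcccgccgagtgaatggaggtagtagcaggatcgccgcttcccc
Nop56: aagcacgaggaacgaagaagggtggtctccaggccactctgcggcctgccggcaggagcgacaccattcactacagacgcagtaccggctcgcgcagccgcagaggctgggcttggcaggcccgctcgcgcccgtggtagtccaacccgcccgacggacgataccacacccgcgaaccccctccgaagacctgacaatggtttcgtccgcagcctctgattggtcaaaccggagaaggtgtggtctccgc
Polr1b: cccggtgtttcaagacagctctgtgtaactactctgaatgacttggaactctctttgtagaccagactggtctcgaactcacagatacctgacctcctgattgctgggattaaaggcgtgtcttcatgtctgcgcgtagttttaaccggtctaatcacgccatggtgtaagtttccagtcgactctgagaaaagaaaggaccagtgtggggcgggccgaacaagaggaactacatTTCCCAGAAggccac
Nop2: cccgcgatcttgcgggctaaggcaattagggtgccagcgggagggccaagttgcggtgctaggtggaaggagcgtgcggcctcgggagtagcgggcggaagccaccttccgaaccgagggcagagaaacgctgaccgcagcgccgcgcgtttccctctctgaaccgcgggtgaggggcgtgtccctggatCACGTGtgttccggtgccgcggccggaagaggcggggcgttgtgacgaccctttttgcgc

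The 250 bases before and 50 after each start were searched for both motifs, whose letters read the same on either strand, and no promoter of the 38 held both. CACGTG was in 6 of the 38 promoters (15.8%), Nop2, Pes1, Utp18, Utp20, Utp25 and Utp4, against 7.90% of 17492 promoters of the same length. In Nop2 it began 60 bases before the start. TTCNNNGAA was in 4 (10.5%), Nob1, Nop58, Polr1b and Utp15, against 7.83% of all, and in Polr1b it began 15 bases before the start. These are matches of letters and not measured binding.

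The other members, in the order of the pathway, were as follows in the synthetic line, each with its log2 difference for GFP-mCherry and then for mCherry-Fc. Polr1d and Polr1c, subunits that RNA polymerase I shares with polymerase III, rose by 0.42 and 0.44 and by 0.19 and 0.16, and Polr1e, a subunit of RNA polymerase I alone, by 0.18 and 0.33. Polr1a, the largest subunit, was not called with either (0.17 and 0.14). Of the box C/D proteins, Nop58 rose by 0.58 and 0.68, and Rrp9, a protein of the U3 particle, by 0.51 and 0.50. Fbl, the methyltransferase of these particles, differed by 0.05 and 0.07 and was not called. Its dimmer probe set differed by 0.28 (adjusted p over probe sets 0.00381) and 0.18 (adjusted p over probe sets 0.0572), so the probe sets of Fbl disagreed. Of the box H/ACA proteins, Nhp2 rose by 0.47 and 0.44, Dkc1 by 0.35 and 0.51 and Gar1 by 0.31 and 0.34, while the small protein Nop10 differed by 0.06 and 0.07 and was not called.

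Among small subunit factors, Bysl rose by 0.66 and 0.64, and the processome proteins Utp15 by 0.61 and 0.60, Utp18 by 0.56 and 0.74 and Utp11 by 0.51 and 0.49. Rrp12 rose by 0.47 and 0.44, Nop9 by 0.43 and 0.36, and Nob1, the endonuclease that makes the end of 18S ribosomal RNA, by 0.31 and 0.30. The processome genes Utp6, Utp4, Nop14, Utp25 and Utp14a rose by 0.24 to 0.32 with GFP-mCherry and by 0.22 to 0.35 with mCherry-Fc. Utp3 (0.20 and 0.17), Utp20 (0.08 and 0.14) and Rrp36 (0.04 and 0.03) were not called with either ligand. Among large subunit factors, Nop2 rose by 0.74 and 0.79, Gnl3 by 0.68 and 0.80, Rrs1 by 0.64 and 0.62, Rrp8 by 0.57 and 0.44, Nop16 by 0.55 and 0.50 and Ebna1bp2, known from yeast as an early assembly factor, by 0.53 and 0.56. The PeBoW genes rose by 0.40 and 0.34 (Bop1), 0.21 and 0.22 (Wdr12) and 0.20 and 0.21 (Pes1). Mrto4 (0.37 and 0.38), whose yeast counterpart holds the place of a stalk protein, Rrp15 (0.35 and 0.38) and Rrp1 (0.29 and 0.27) rose, while Nip7 (0.13 and 0.13) and Nop53 (0.07 and 0.15) were not called. Of the nucleolar chaperones and scaffolds, Nolc1 rose by 0.46 and 0.57. Ncl (nucleolin) differed by 0.20 with GFP-mCherry (adjusted p = 0.0593) and rose by 0.24 with mCherry-Fc (adjusted p = 0.0275), and Npm1 (nucleophosmin) differed by 0.12 and 0.09 and was not called.

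**Figure D3:**
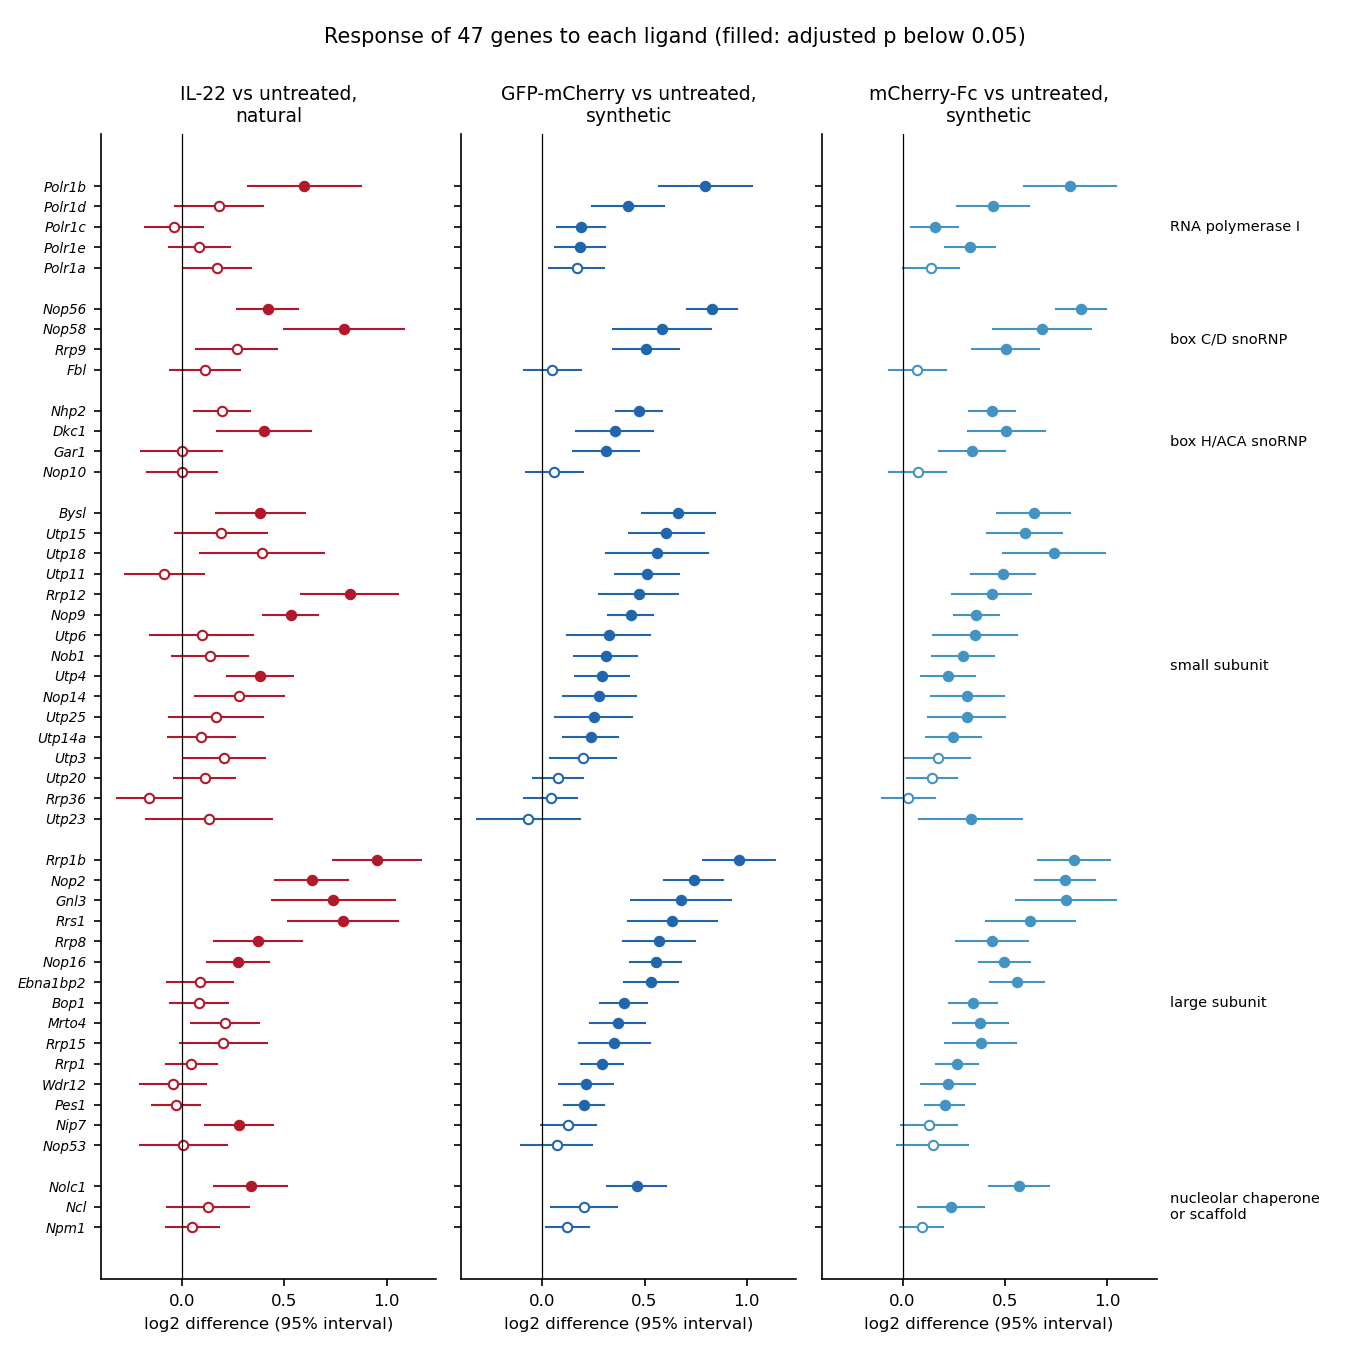
Log2 difference of each of the 47 genes with its 95% interval, for IL-22 (left), GFP-mCherry (middle) and mCherry-Fc (right), each against untreated cells of the same line, grouped by role. Filled points have an adjusted p below 0.05: 16, 36 and 38 genes. No filled point lies left of 0.

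Leaving out single arrays, 31 of the 36 GFP-mCherry calls and 35 of the 38 mCherry-Fc calls held throughout. With GFP-mCherry, Utp6 (adjusted p = 0.0604), Nop14 (0.0503) and Wdr12 (0.0507) lost their call without untreated replicate 7, Wdr12 also without untreated replicate 9 (0.0512), and Polr1e without GFP-mCherry replicate 12 (0.0624) or untreated replicate 14 (0.0677). Utp25 lost its call without any of 10 of the 12 arrays, with adjusted p-values of 0.0515 to 0.109. With mCherry-Fc, Ncl, Polr1c and Utp23 each lost their call without 1 of mCherry-Fc replicates 13, 14 and 15 or untreated replicates 7, 9, 11, 12 and 14, with adjusted p-values of 0.055 to 0.122. Ncl was also not called with the replicate number as a block. Among the 29 markers, Cd79a and Epor were higher and Vpreb3, Cd247, Zap70, Mcpt8 and Klf1 lower with GFP-mCherry, and Epor was higher and Vpreb3, Cd3e, Cd4, Cd247, Zap70, Mcpt8 and Klf1 lower with mCherry-Fc. Their part in these results was not tested.

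Utp23, known from yeast to act in the removal of a snoRNA from the small subunit processome, was the one member whose value differed in sign between the ligands. It read 7.83, 8.01 and 8.14 with GFP-mCherry and 8.07, 8.41 and 8.66 with mCherry-Fc, against 7.75, 8.01 and 8.47 untreated. The untreated arrays overlapped both ligand groups, since untreated replicates 7, 9 and 11 read 7.83, 7.75 and 7.80 and replicates 12, 13 and 14 read 8.20, 8.34 and 8.47. Against untreated cells Utp23 differed by -0.07 with GFP-mCherry (adjusted p = 0.708) and rose by 0.33 with mCherry-Fc (adjusted p = 0.046). Within the lower replicate numbers the GFP-mCherry difference was 0.22 (adjusted p = 0.0421), and within the higher ones -0.35 (adjusted p = 0.0167).

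The counts were also taken within each range of replicate numbers. With GFP-mCherry 39 genes rose within the lower numbers, against 16.7% of all genes higher and 13.3% lower. Within the higher numbers 32 rose and 1 fell (Utp23), against 11.6% of all genes higher and 8.72% lower. With mCherry-Fc 39 rose within the lower numbers, against 13.7% of all genes higher and 10.9% lower, and 35 within the higher numbers, against 12.6% higher and 7.66% lower.

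The ligands for both chains and for IL-10R2 alone were then compared directly. GFP-mCherry against mCherry-Fc called 0 of the 47 genes by limma, against 1.09% of all genes called in either direction, 0.722% higher and 0.371% lower, and the median difference was -0.01. At an unadjusted limma p below 0.05 there were 2, Utp23 and Polr1e, both lower with GFP-mCherry. Array weights, a fit to the 2 groups alone and a term for the range of replicate numbers each called 1. The 1.09% belongs to the main fit, and the shares of all genes in these other fits are not given here. The 95% interval stayed within 0.25 on either side of 0 for 37 of the 47 genes, so a difference of that size was not within the interval for these. The bound farthest from 0 was that of Utp23, whose difference of -0.40 had bounds of -0.65 and -0.15 (adjusted p = 0.162). Dkc1 was the 1 gene of the 47 whose groups did not overlap, a share near the 2.96% of all genes. Its difference was -0.15 (-0.34 to 0.03, adjusted p = 0.697). Within the lower replicate numbers Rrp8 was higher with GFP-mCherry by 0.30 (adjusted p = 0.00853) and Polr1e lower (-0.26, adjusted p = 0.0287), and within the higher numbers Utp23 was lower (-0.62, adjusted p = 0.00562). A p above the threshold does not show that the ligands act alike.

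The responses of the lines were compared next, each against its own untreated cells. Of the 16 genes that rose with IL-22, 15 also rose with GFP-mCherry, which is 93.8% of the IL-22 genes and 41.7% of the 36 GFP-mCherry genes, and Nip7 was the exception. As 36 of the 47 members (76.6%) rose with GFP-mCherry, most of any 16 members would be expected among them. The same overlap over all genes was not computed, so the count alone does not show that the lines share a response. The IL-22 and GFP-mCherry differences, which share no arrays, correlated across the 47 genes at r = 0.716 (Spearman rho = 0.679), against r = 0.247 (rho = 0.126) over all genes. The 47 genes lay at the 58.08 to 99.24 percentile of mean intensity. The coefficients over all genes include dimmer genes and were not matched for intensity. Genes are not independent replicates, and these coefficients describe the 2 sets of differences only.

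The test of the difference itself found 9 genes with a larger change under GFP-mCherry than under IL-22 and 0 with a smaller one, against 13.6% of all genes called in either direction, 9.23% higher and 4.40% lower. The median over the 47 was 0.14. For mCherry-Fc against IL-22 there were 4 and 0, against 13.4% of all genes called, 8.76% higher and 4.60% lower, with a median of 0.17. The 4 mCherry-Fc calls are a share of the members near that of all genes. The 2 tests share the untreated synthetic and all natural arrays.

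Utp11, a small subunit processome protein, read 9.15, 9.29, 9.29 and 9.48 with IL-22 (replicates 1, 2, 3 and 5), against 9.40, 9.16, 9.43 and 9.57 in untreated natural cells (replicates 2, 3, 4 and 5). These groups overlapped, with the lowest array in the IL-22 group. In the synthetic line Utp11 read 9.54, 9.66 and 9.90 with GFP-mCherry and 9.57, 9.67 and 9.72 with mCherry-Fc, against 8.91, 9.21 and 9.37 untreated, and here the ligand groups lay above all untreated arrays. The responses differed by 0.60 ± 0.12 for GFP-mCherry (adjusted p = 0.000926) and by 0.58 ± 0.12 for mCherry-Fc (adjusted p = 0.00153).

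Ebna1bp2 read 9.01, 9.05, 9.06 and 8.95 with IL-22, against 9.15, 8.99, 8.71 and 8.87 untreated, and these groups overlapped. In the synthetic line it read 9.20, 9.32 and 9.46 with GFP-mCherry and 9.27, 9.32 and 9.50 with mCherry-Fc, against 8.64, 8.81 and 8.95 untreated, with no overlap. The responses differed by 0.44 (adjusted p = 0.00311) and 0.47 (adjusted p = 0.00201). Nop56 rose in both lines but by less with IL-22, where it read 11.10, 11.13, 11.19 and 10.89, against 10.83, 10.67, 10.53 and 10.60 untreated. Its responses differed by 0.41 (adjusted p = 0.00307) and 0.46 (adjusted p = 0.00131). Utp15, a protein of the processome's early module, read 9.56, 9.70, 9.63 and 9.31 with IL-22, against 9.53, 9.51, 9.20 and 9.21 untreated. In the synthetic line Utp15 read 9.63, 9.73 and 9.81 with GFP-mCherry, against 8.85, 9.09 and 9.48 untreated, and the GFP-mCherry response was larger by 0.42 (adjusted p = 0.0474). The other 5 GFP-mCherry calls were Bop1 (0.31), Nop16 (0.28), Nhp2 (0.27), Rrp1 (0.25) and Pes1 (0.24), and Pes1 (0.24) was also called for mCherry-Fc. Polr1d, at 0.24 (adjusted p = 0.281), was not called for GFP-mCherry, whereas its dimmer probe set gave 0.29 (adjusted p over probe sets 0.00965). Rrp12 pointed the other way, with -0.35 for GFP-mCherry (adjusted p = 0.127) and -0.38 for mCherry-Fc (adjusted p = 0.0885).

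These counts moved with the arrays and the model. Utp11, Ebna1bp2 and Nop56 kept their call whichever single array was left out. Without untreated natural replicate 3 they were the only GFP-mCherry calls, the other 6 having adjusted p-values of 0.0511 to 0.106. The mCherry-Fc call of Pes1 was lost without that array too (adjusted p = 0.0903). With natural replicates 1 to 3 left out, Nop56 kept both calls (adjusted p = 0.0191 and 0.0115 for GFP-mCherry and mCherry-Fc), while Utp11 (0.0922 and 0.125) and Ebna1bp2 (0.174 and 0.15) lost both. With the replicate number as a block, 13 were higher and 1 lower for GFP-mCherry, against 10.3% of all genes higher and 5.13% lower, with 8 of them among the 9 and Rrp12 the lower one (-0.28, adjusted p = 0.0321). For mCherry-Fc the block gave 10 higher, against 8.52% of all genes. Without the 3 natural arrays that stood apart, 10 were higher and 1 lower for GFP-mCherry, against 11.4% of all genes higher and 5.00% lower, and 10 were higher and 1 lower for mCherry-Fc, against 11.4% higher and 5.17% lower. The lower gene was Rrp12 in both, at -0.28 (adjusted p = 0.047) and -0.32 (adjusted p = 0.0245).

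**Figure D4:**
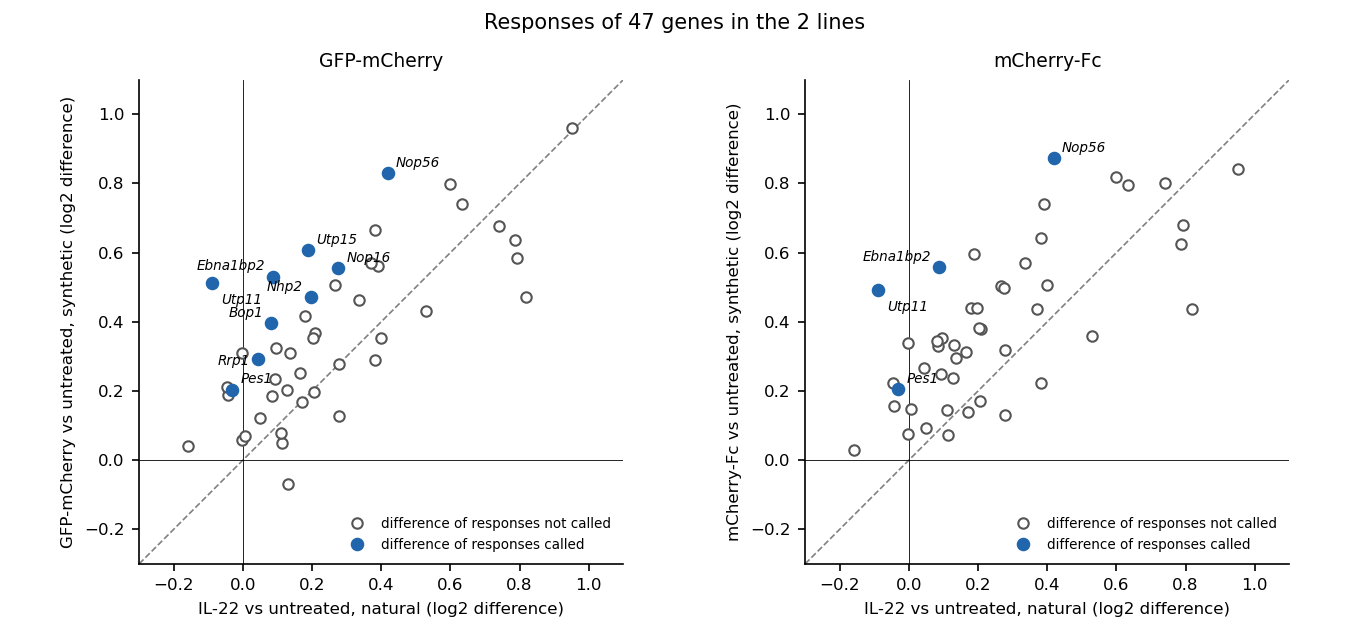
Log2 difference against untreated cells of the same line for each of the 47 genes, with IL-22 on the horizontal axis and GFP-mCherry (left) or mCherry-Fc (right) on the vertical axis. Filled points are genes whose 2 responses differed at an adjusted p below 0.05 (9 and 4), and the dashed line marks equal responses. All filled points lie above the line.

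Without ligand the lines themselves differed. Untreated synthetic cells were lower than untreated natural cells in 19 of the 47 genes and higher in 4 (Utp23, Fbl, Nop10 and Polr1c), against 6.62% of all genes lower, 8.60% higher and 15.2% called in either direction. The median difference was -0.19, against 0.01 over all genes, and 17 genes did not overlap, against 10.0% of all genes. Lower genes were 7 of 15 large subunit factors, 5 of 16 small subunit factors, 3 of 5 polymerase subunits, 2 of 4 box C/D proteins, 1 of 4 box H/ACA proteins and 1 of 3 chaperones or scaffolds. This comparison uses the untreated arrays that the ligand comparisons use as well.

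Rrp1b read 7.60, 7.79 and 7.91 in untreated synthetic cells, against 8.49, 8.65, 8.44 and 8.5 in untreated natural cells, and the groups were apart. It was lower by 0.74 on the log2 scale (difference -0.74 ± 0.10, adjusted p = 2.74e-06). Nolc1 read 8.82, 8.95 and 9.01 in untreated synthetic cells, against 9.56, 9.65, 9.46 and 9.48 in untreated natural cells, also with no overlap (-0.60 ± 0.08, adjusted p = 3.7e-06). Polr1b read 8.01, 8.11 and 8.32, against 8.88, 8.90, 8.55 and 8.58 in the natural line (-0.59 ± 0.12, adjusted p = 0.00122). The next largest were Nop56 (-0.57), Nop2 (-0.54) and Rrp12 (-0.52).

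Of the genes higher in the synthetic line, Utp23 read 7.75, 8.01 and 8.47, against 7.79, 7.75, 7.29 and 7.43 in untreated natural cells, and the groups overlapped (0.50 ± 0.14, adjusted p = 0.0122). Fbl read 9.76, 9.92 and 10.13, against 9.64, 9.73, 9.50 and 9.43, with no overlap (0.34 ± 0.08, adjusted p = 0.0022). The dimmer probe set of Fbl differed by 0.20 and was not called (adjusted p over probe sets 0.0956). Nop10 read 11.87, 12.09 and 12.23, against 11.87, 11.80, 11.71 and 11.67, and the groups met at their edges (0.29 ± 0.08, adjusted p = 0.00822). Polr1c was higher by 0.23 (adjusted p = 0.0123).

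The myeloid markers moved with this comparison, 4 of 6 being lower in untreated synthetic cells (Itgam, Adgre1, Lyz2 and Mpo) and 0 higher, and their part in it was not tested. Without natural replicates 4 and 5 the 47 genes gave 23 lower and 0 higher, against 5.04% of all genes lower and 4.36% higher, with a median of -0.26. Against natural replicates 4 and 5 alone they gave 13 lower and 6 higher, against 7.68% of all genes lower and 10.9% higher, with a median of -0.09. Within the lower replicate numbers of both lines 27 were lower and 0 higher, against 7.40% of all genes lower and 4.37% higher. Within the higher numbers 13 were lower and 14 higher, against 10.6% of all genes lower and 18.3% higher, so how the list split depended on which arrays were compared. The lines share no replicate number. Single arrays left out gave 19 to 25 called genes. The call of Nop58 (adjusted p = 0.0573) was lost without natural replicate 2 and that of Mrto4 (0.064) without natural replicate 3. Polr1c (0.0951 and 0.0537) and Utp23 (0.08 and 0.0511) lost theirs without natural replicate 4 or 5. Several single arrays of both lines each removed the other lost calls. These were natural 2 or 3 or synthetic 7 or 11 for Gnl3 (0.0615 to 0.132). For Polr1e they were natural 2, 4 or 5 or synthetic 12, 13 or 14 (0.0745 to 0.127). For Wdr12 they were natural 2, 4 or 5 or synthetic 7 or 9 (0.0589 to 0.081).

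**Figure D5:**
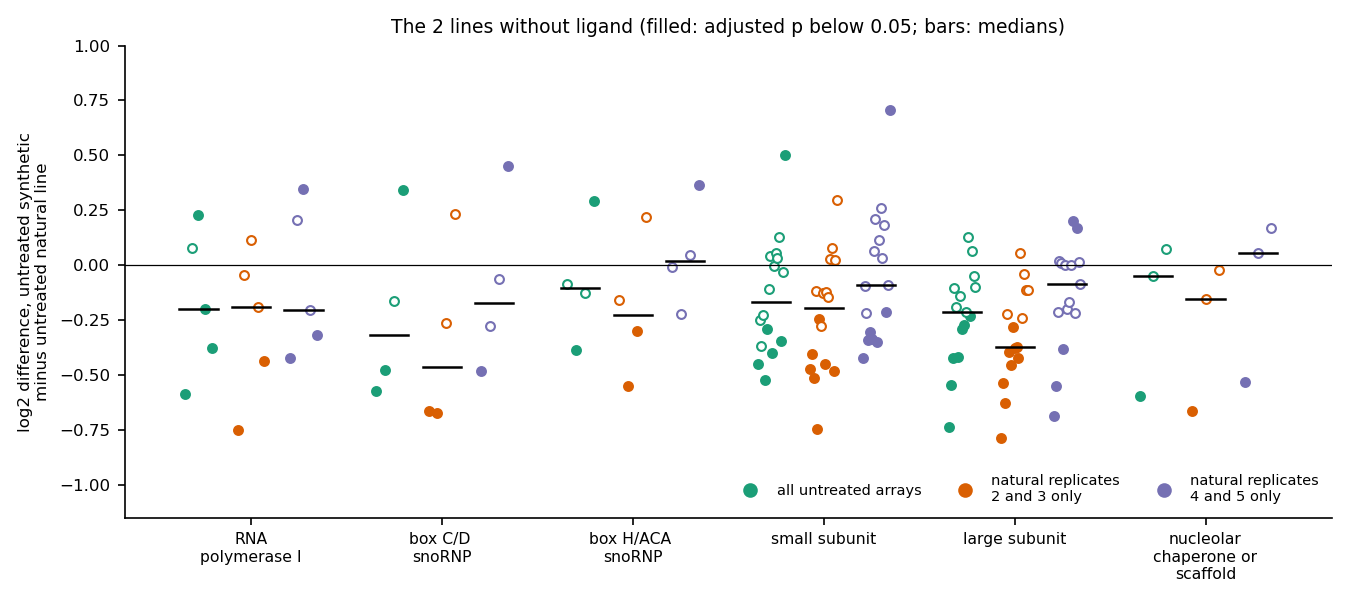
Log2 difference of untreated synthetic minus untreated natural cells for each of the 47 genes by role, from all untreated arrays, with natural replicates 2 and 3 only, and with natural replicates 4 and 5 only. Each point is a gene, filled where the adjusted p is below 0.05, and bars are medians. Called genes number 4 higher and 19 lower with all arrays, 0 and 23 with replicates 2 and 3, and 6 and 13 with replicates 4 and 5.

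A wider list of 104 other genes of ribosome synthesis was read beside the members, 107 having been listed. With IL-22 29 rose and 0 fell, against 5.39% of all genes higher and 6.03% lower. With GFP-mCherry 55 rose and 2 fell, against 14.2% higher and 11.8% lower, and with mCherry-Fc 67 rose and 2 fell, against 14.0% higher and 13.0% lower. The medians were 0.16, 0.21 and 0.25. The largest IL-22 rises were those of Exosc7, a core subunit of the RNA exosome (0.81), Dis3, an exosome nuclease (0.63), and Dimt1, a methyltransferase of 18S ribosomal RNA (0.63). Dis3 lost its call without any 1 of IL-22 replicates 1, 2 and 3 and untreated replicates 4 and 5, with adjusted p-values up to 0.0705. In the limma fit to the 2 natural groups alone neither Dis3 (adjusted p = 0.105) nor Dimt1 (0.0693) was called. With natural replicates 1 to 3 left out, their differences were 0.28 and 0.13. GFP-mCherry raised Tsr1, a factor of pre-40S maturation, by 0.80, Taf1a, a subunit of the polymerase I selectivity factor SL1, by 0.71, and Mphosph10, a protein of the U3 particle, by 0.68. mCherry-Fc raised Tsr1 by 0.90, Taf1a by 0.79 and Nifk, a large subunit processing factor that binds Ki-67, by 0.70.

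The 2 genes of that list that fell with both synthetic ligands were Wdr46, a scaffold of the small subunit processome (-0.31 with GFP-mCherry and -0.28 with mCherry-Fc), and Taf1d, another SL1 subunit (-0.18 and -0.14). Taf1d changed sign with the mean of all its probe sets, at 0.39 with GFP-mCherry and 0.56 with mCherry-Fc, so its direction depends on the probe set. The mCherry-Fc call of Taf1d was also lost without any 1 of mCherry-Fc replicates 9, 13, 14 and 15 and untreated replicates 11, 12 and 14, with adjusted p-values up to 0.0703. With arrays centred on their medians, Taf1d was not called with either ligand and Wdr46 not with mCherry-Fc. Untreated synthetic cells were lower than untreated natural cells in 26 of the 104 genes and higher in 3, against 6.62% of all genes lower and 8.60% higher. Of the RNA polymerase I subunits that carry other symbols in the annotation, read after the members' values were known, Twistnb, Cd3eap and Znrd1 rose with GFP-mCherry by 0.35, 0.40 and 0.43 and with mCherry-Fc by 0.47, 0.37 and 0.34. With IL-22, Twistnb rose by 0.37 and Cd3eap by 0.26, and Znrd1 differed by 0.06 (adjusted p = 0.7).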

How the data were processed

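Each array's deposited file gives a log2 intensity for every probe set. Per the submitters' processing notes the authors used Affymetrix Expression Console 4.0, and the labels name a core gene or exon analysis. Background correction, normalization and genome build are not given in the sources used here. Probe sets with 1 gene symbol were kept and named through Entrez identifiers (21698 of 21789 matched current records), and the probe set with the highest mean stood for each gene, which left 19938 genes. Of the 47 members 4 had several probe sets (Fbl, Mrto4, Polr1d and Wdr12). No filter was applied to dim genes, so shares over all genes include genes dimmer than any member. The number of arrays limits the precision.

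A single fit held all 26 arrays in 5 groups (limma 3.58.1 in R 4.3.3 with lmFit and eBayes, two-sided), with Benjamini-Hochberg adjustment over all genes and a threshold of 0.05. The model was tested on simulated data. Members, the wider list and the markers were chosen with earlier results of these data known. Per-array values are given for the 3 largest rises and falls past the threshold in each of 7 comparisons.

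Replicate numbers in the titles recur across groups. Deviations of same-numbered arrays from their group means correlated at 0.313 to 0.621 for IL-22 and untreated natural arrays. The range was 0.26 to 0.466 for mCherry-Fc and untreated arrays and 0.105 to 0.271 for GFP-mCherry and mCherry-Fc arrays. For GFP-mCherry and untreated arrays it was -0.146 to 0.417. In each pair of groups some arrays correlated more with an array of another number. For IL-22 replicate 3 this was 0.353 against 0.313. For replicate 9 it was 0.369 against 0.26 (mCherry-Fc and untreated), 0.311 against 0.22 (GFP-mCherry and mCherry-Fc) and 0.373 against 0.238 (GFP-mCherry and untreated). The correlations therefore do not settle whether the numbers pair the arrays. Counts in the text come from the fit without a replicate block unless the block is named, and the block was an alternative. Whether a number marks a shared culture or day is not stated. Alternatives were other normalizations, filters, variance priors, array weights, a minimum change, the replicate block, ranges of replicate numbers and single arrays left out. Leaving out natural replicates 4 and 5, or 1 to 3, was chosen after seeing the data.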

Additional observations from a re-analysis of the deposited data

Results flagged for a closer look

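An outlier rule was applied to 12 named genes in each of the 5 groups of 4 or 6 arrays, which made 60 sets of values. It flagged 4 sets, all among the 12 of the IL-22 group. For independent values chance gives about 1 in 20, but these genes were picked for large differences and are not independent. In the 4 sets IL-22 replicate 5 stood far below the other 3 IL-22 arrays. This replicate read 9.02 for Rrp1b with the nearest array at 9.59, and 8.49 for Rrp12 with the nearest at 9.08. For Polr1b it read 8.76 with the nearest at 9.45, and for Nolc1 9.45 with the nearest at 9.98. The same array is 1 of the 3 natural arrays with high myeloid markers.

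The responses of the lines differed by the test of the difference in 13 results. With GFP-mCherry the response exceeded that to IL-22 by 0.60 for Utp11, 0.44 for Ebna1bp2, 0.42 for Utp15, 0.41 for Nop56, 0.31 for Bop1, 0.28 for Nop16, 0.27 for Nhp2, 0.25 for Rrp1 and 0.24 for Pes1. With mCherry-Fc it exceeded that to IL-22 by 0.58 for Utp11, 0.47 for Ebna1bp2, 0.46 for Nop56 and 0.24 for Pes1. Line, receptor and ligand change together in these results and cannot be told apart.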

How the results depend on the processing

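Of 9306 recomputed differences of members 361 lost and 280 gained a call, and 6 that were called in at least 1 of the fits compared changed sign. A further 389 changed sign without being called in either fit. Counts of members called in this section are given without the share of all genes called in the same fit. They therefore do not show whether the members moved more than all genes did. Members called moved as follows. For IL-22, 8 were called with only the groups compared, 6 with a minimum change of 1.2-fold, 5 within high replicate numbers and 3 with natural replicates 1 to 3 left out. A minimum change left 10 for GFP-mCherry, 10 for mCherry-Fc, 4 between untreated lines and 0 for each difference of responses. GFP-mCherry against mCherry-Fc gave 1 with array weights, with only the groups compared, with the number range as a term and within high numbers, and 2 within low numbers. The GFP-mCherry minus IL-22 response gave 5 with only the groups compared, 14 with the fixed replicate block, 17 with the range term, 16 and 5 within low and high numbers and 4 with natural replicates 1 to 3 left out. The mCherry-Fc minus IL-22 response gave 8 with centring or the lenient filter, 11 with the stricter filter, 7 with a trended prior or array weights, 10 and 11 with a fixed and random replicate block, 24 with the range term, 14 and 7 within low and high numbers, and 11 and 2 with natural replicates 4 and 5, or 1 to 3, left out. The block changed no other count by over 1.5 times (13 for IL-22, 39 for GFP-mCherry, 37 for mCherry-Fc), though Bysl, Nip7 and Nolc1 lost the IL-22 call and Ncl the mCherry-Fc call, and it could not be fitted between the untreated lines, which share no number. In no pair of groups were same-numbered arrays always the closest match. The mCherry-Fc median was 0.24 after quantile normalization, and the median between untreated lines was -0.35 within low numbers, 0.011 within high numbers and -0.086 with natural replicates 1 to 3 left out.

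Leaving out single arrays gave 10 to 22 called members for IL-22, 32 to 40 for GFP-mCherry, 35 to 40 for mCherry-Fc, 0 between the ligands, 3 to 9 and 3 to 8 for the GFP-mCherry and mCherry-Fc minus IL-22 responses and 19 to 25 between untreated lines. Differences called in at least 1 of the fits compared turned sign within low numbers for Utp23 with GFP-mCherry (0.22), within high numbers for Nolc1 with IL-22 (-0.020, also with natural replicates 1 to 3 left out) and between untreated lines for Utp6 (0.27), Nop14 (0.26) and Ncl (0.23), and with the mean of all probe sets for Taf1d with IL-22 (0.64), GFP-mCherry (0.39) and mCherry-Fc (0.56). The causes were not tested. Within high numbers IL-22 rests on 1 array, assumed to vary like the other groups. Centring added up to 0.0955 to the median of all genes.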
